A study of Arabidopsis thaliana with 16 samples.

Results

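The genes described here are the 5 CYCLING DOF FACTOR genes CDF1 (AT5G62430), CDF2 (AT5G39660), CDF3 (AT3G47500), CDF4 (AT2G34140) and CDF5 (AT1G69570), together with the corepressor gene TOPLESS (TPL, AT1G15750) and the histone deacetylase gene HDA19 (AT4G38130). They were taken by gene ID, a rule that uses no measured value, and all 7 were found among the 33201 loci measured. Expression was measured by RNA-seq in sorted root tip cells of 5-day-old Arabidopsis thaliana seedlings, with 4 libraries for each of 4 populations. The w5C6 cells were GFP positive cells of wox5 crossed with pCYCD6:GUS-GFP, and the C6 cells were GFP positive cells of pCYCD6:GUS-GFP without the mutation. Their reporter is driven by the promoter of CYCD6;1, active in the cortex endodermis initial (CEI), from which both of these tissues are formed. The W5S cells were GFP positive and the W5NS cells GFP negative cells of pWOX5:erGFP, whose reporter is driven by the WOX5 promoter and marks the quiescent center (QC). The labels name no agent for any population, and all cells had been freed of their walls before sorting. C6 and w5C6 thus differ from W5S and W5NS in the reporter line as well as in the cells sorted, and these cannot be told apart.

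WOX5 is a homeodomain transcription factor made in the QC that keeps the neighbouring columella stem cells undifferentiated. There it is known to bring TPL, and through TPL the histone deacetylase HDA19, to the CDF4 promoter, where the removal of histone acetyl groups represses CDF4. CDF proteins bind DNA through a single zinc finger, the DOF domain. In leaves, CDF1, CDF2, CDF3 and CDF5 hold back CONSTANS (CO) and FLOWERING LOCUS T (FT), the activators of flowering in long days, until a complex of GIGANTEA (GI) and the blue light receptor FKF1 has the CDF proteins degraded. CDF transcripts cycle with the circadian clock, which is where the name comes from. Each population was collected here without a time series, so cycling was not measured.

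Values are read as FPKM, fragments per kilobase of transcript scaled to library size, a unit that the deposited table does not itself name, and each is the authors' pooled value over the libraries of a population. They have no standard deviation and no test was run, so for no pair of neighbours in an order of levels can it be said whether they differ beyond the spread between replicates. A difference is called past 2-fold when the log2 ratio of (FPKM + 1) is at least 1 in size. The added 1 makes ratios of low genes smaller. Of the loci with a mean of at least 1 FPKM over the 4 populations, 48.4% had a highest value past 2-fold over their lowest, as did CDF1, CDF4 and CDF5. The share was 54.0% among loci of 2 to 20 FPKM, where all CDF genes lie, and 32.7% among those of 20 to 150 FPKM, where TPL and HDA19 lie. Sequencing depth is unknown. A shift of all loci was gauged from the 16670 loci that reached 1 FPKM in all populations. Their median log2 ratio was 0.01 in w5C6 over C6 and -0.02 in W5S over W5NS. It was 0.12 for w5C6 and for C6 when set against W5NS, and 0.15 for either when set against W5S. The genes of the sorting reporters were read first. WOX5 read 0.0865 FPKM in w5C6, 18.4 in C6, 206 in W5S and 42.1 in W5NS. The w5C6 cells carry the wox5 mutation, so their low value goes with the genotype. W5S was sorted on the WOX5 promoter, and its value shows that the sort drew cells richer in WOX5 mRNA than W5NS. It is no independent marker of QC identity and does not show how pure the cells are. Of the other QC markers, PLT1 read 172 FPKM in W5S and 151 in W5NS, PLT2 78.4 and 71.1, and AGL42 20.4 and 10.2. Of 6 root cap markers, BRN1 (146 against 33.3 FPKM) and BRN2 (126 against 32.4) were higher past 2-fold in W5S than in W5NS. FEZ was lower (24.9 against 52.8 FPKM). Over all loci with a mean of at least 1 FPKM, 5.89% were higher and 9.31% lower in W5S than in W5NS. CYCD6;1, the gene of the CEI reporter, read 7.01 FPKM in w5C6, 9.75 in C6, 0.828 in W5S and 7.02 in W5NS, so the GFP negative cells, which were not sorted against the CYCD6;1 reporter, carried about as much of it as the w5C6 cells.

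CDF4, the gene that WOX5 is known to repress in columella stem cells, was lowest in the wox5 mutant cells. It read 2.39 FPKM in w5C6, 6.56 in C6, 8.15 in W5S and 8.98 in W5NS. The value in w5C6 stood apart, while the other values lay within 1.37-fold of each other. CDF4 was 2.74-fold lower in w5C6 than in C6 (log2 ratio -1.16). It was also 3.41-fold lower in w5C6 than in W5S (log2 ratio -1.43) and 3.76-fold lower than in W5NS (log2 ratio -1.56). In W5S, the cells with the most WOX5 mRNA, CDF4 stood at 0.908 of its level in the W5NS cells (log2 ratio -0.12). No population was sorted on a marker of columella stem cells, where the repression is known, so these values do not bear on it directly. WOX5 protein was not measured in these cells. The study found that it moves between QC and CEI, so WOX5 mRNA does not give the protein present in a population. These are whole sorted populations, in which fewer cells of a type and less RNA per cell cannot be told apart.

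CDF5, a repressor of CO in leaves, stood the other way in the mutant cells. It read 7.01 FPKM in w5C6, 3.17 in C6, 1.34 in W5S and 1.63 in W5NS. The mutant cells were thus highest and both populations of the WOX5 reporter lowest. The level in w5C6 was 2.21-fold that in C6 (log2 ratio 0.94, just short of 2-fold on the scale used). Against W5S and W5NS it was 5.23-fold and 4.31-fold higher (log2 ratios 1.78 and 1.61). CDF5 was above CDF4 in w5C6 alone, where it read 2.93 times CDF4. CDF4 read 2.07 times CDF5 in C6, 6.08 times in W5S and 5.51 times in W5NS.

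CDF1, the first of the family shown to repress CO, was highest in the wild-type CEI marker cells. It read 3.92 FPKM in w5C6, 9.45 in C6, 2.4 in W5S and 4.28 in W5NS. The C6 value was above all others, and w5C6 and W5NS lay within 1.09-fold of each other. CDF1 was 2.41-fold lower in w5C6 than in C6 (log2 ratio -1.09) and 3.94-fold higher in C6 than in W5S (log2 ratio 1.62). In C6 it was 2.21-fold above W5NS, with a log2 ratio of 0.99 just short of the threshold.

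CDF2, a partner of CDF1 in holding back CO, was the most abundant of the 5 in every population and highest in the QC marker cells. It read 13.0 FPKM in w5C6, 11.9 in C6, 23.2 in W5S and 13.5 in W5NS. Values outside W5S lay within 1.13-fold of each other. CDF2 was 1.72-fold higher in W5S than in W5NS (log2 ratio 0.74) and 1.95-fold lower in C6 than in W5S (log2 ratio -0.91), neither past 2-fold.

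CDF3, which is also known for a part in drought and cold tolerance, read 4.08 FPKM in w5C6, 2.77 in C6, 3.31 in W5S and 5.49 in W5NS. Its highest value was 1.99 times its lowest, close to the 1.95 times of CDF2. The largest difference was between C6 and W5NS, at 1.99-fold lower in C6 (log2 ratio -0.79). In w5C6 it was 1.47-fold higher than in C6 (log2 ratio 0.43).

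**Figure D1:**
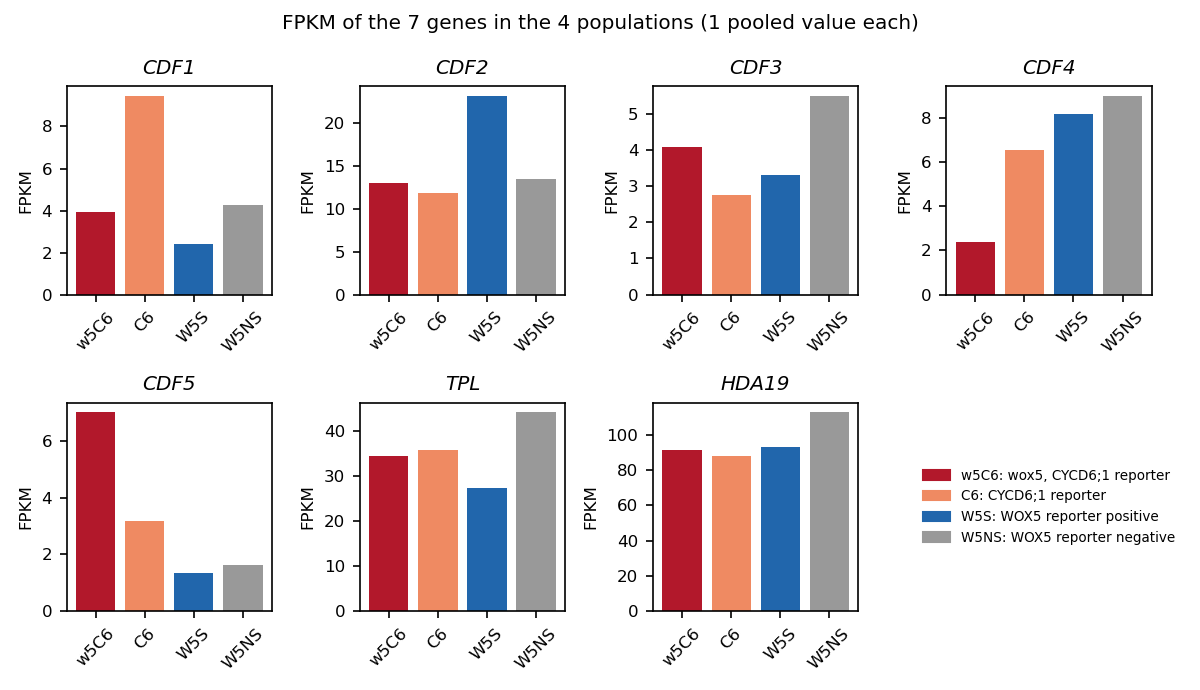
FPKM (vertical axes, from 0, a scale of its own for each gene) of the 7 genes in the 4 populations (horizontal axes); each bar is the authors' pooled value and there are no error bars. CDF4 is lowest in w5C6 at 2.39 and CDF5 highest there at 7.01, CDF1 peaks in C6 at 9.45 and CDF2 in W5S at 23.2, while HDA19 stays between 88.0 and 113.

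The summed level of CDF1 to CDF5 varied less than its parts. The sum was 30.5 FPKM in w5C6, 33.8 in C6, 38.4 in W5S and 33.8 in W5NS. Within it, CDF4 made up 7.85% in w5C6, 19.4% in C6, 21.3% in W5S and 26.5% in W5NS. CDF5 made up 23.0%, 9.37%, 3.49% and 4.81% of the sum in the same order of populations. The share of CDF1 was 12.9% in w5C6 and 28.0% in C6, against 6.25% in W5S and 12.6% in W5NS. CDF2 ranged from 35.1% in C6 to 60.4% in W5S. CDF5 was highest in w5C6, CDF1 in C6 and CDF2 in W5S. CDF3, CDF4, TPL and HDA19 were all highest in W5NS.

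**Figure D2:**
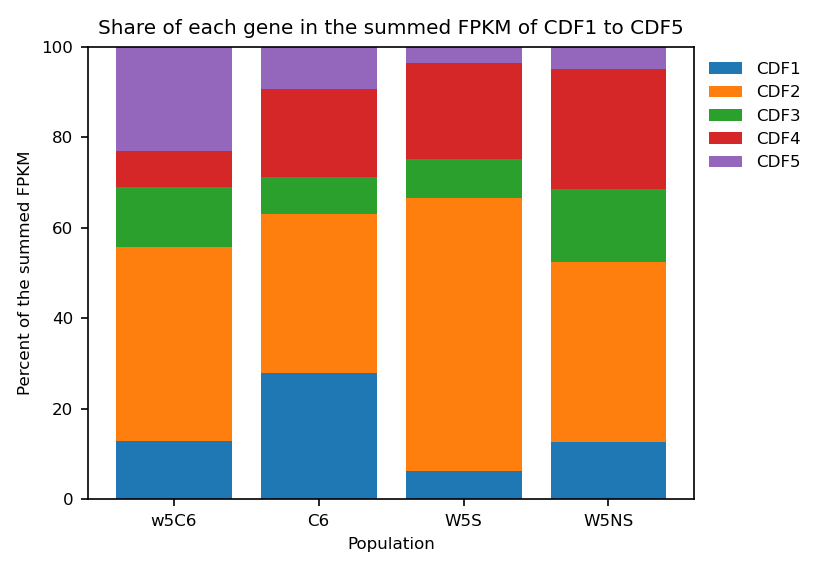
Share (percent, vertical axis) of each gene in the summed FPKM of CDF1 to CDF5 for the 4 populations (horizontal axis); colours stand for genes. CDF4 takes 7.85% of the sum in w5C6 and 19.4% in C6, and CDF5 takes 23.0% in w5C6 and 9.37% in C6.

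The comparison of w5C6 with C6 sets mutant against wild-type cells of the same reporter. By the study's imaging the reporter domain is wider in wox5 roots, so the mutation and the cells sorted cannot be told apart. CDF1 and CDF4 were lower past 2-fold and none of the 7 genes was higher, while 4.85% of loci were lower, 10.1% higher and 14.9% either. The median log2 ratio was 0.06 for the 7 genes and also 0.06 for all loci with a mean of at least 1 FPKM. Loci of 2 to 20 FPKM were more often higher past 2-fold than those of 20 to 150 FPKM, but slightly less often lower. Of the 10447 loci with a mean of 2 to 20 FPKM, the range that holds all 5 CDF genes, 4.62% were lower and 11.2% higher past 2-fold (15.8% either). TPL and HDA19, at 34.5 and 91.7 FPKM in w5C6 against 35.8 and 88.0 in C6, had log2 ratios of -0.05 and 0.06. The sign for TPL turned to 0.02 when each population was scaled to the same sum. Among the 6409 loci of 20 to 150 FPKM, 5.10% were lower and 2.39% higher past 2-fold (7.49% either).

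**Figure D3:**
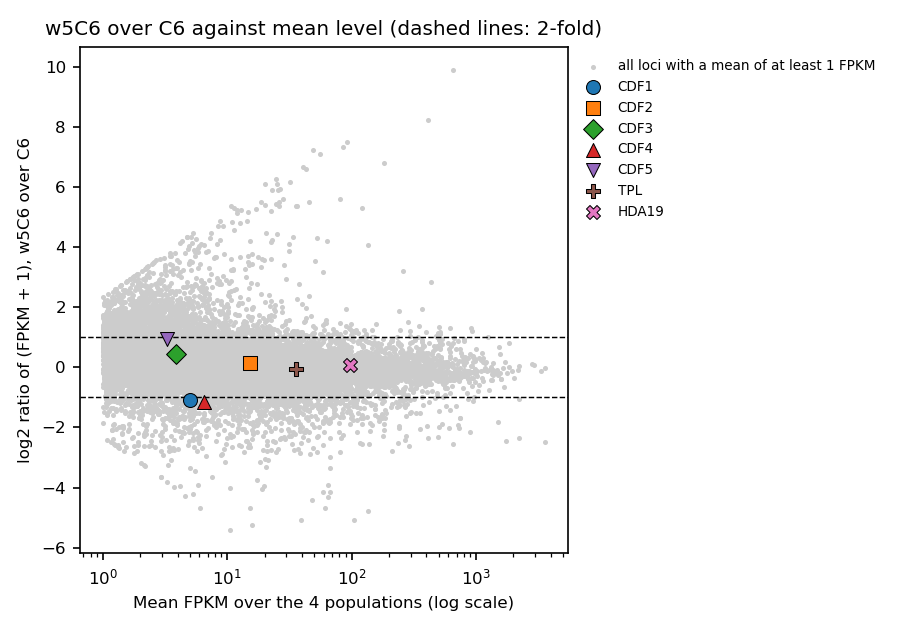
Log2 ratio of (FPKM + 1) in w5C6 over C6 (vertical axis) against the mean FPKM over the 4 populations (horizontal axis, log scale) for the 20344 loci with a mean of at least 1 FPKM (grey) and the 7 genes (marked); dashed lines stand at 2-fold. CDF1 (-1.09) and CDF4 (-1.16) lie just beyond the lower line and CDF5 (0.94) just inside the upper one, within the cloud of loci of like level.

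The comparisons with W5NS set marker cells against the GFP negative cells of the WOX5 reporter line. In w5C6, CDF5 was higher and CDF4 lower past 2-fold, with 15.0% of loci higher and 3.81% lower (18.8% either). In C6 none of the 7 genes passed 2-fold, against 11.4% of loci higher and 5.80% lower (17.2% either). CDF1 (0.99) and CDF5 (0.67) had positive log2 ratios there and the other 5 genes negative ones, from -0.17 for CDF2 to -0.79 for CDF3. In W5S over W5NS none of the 7 passed either, against 5.89% of loci higher and 9.31% lower (15.2% either). CDF2 alone was above 0 (0.74), and the other 6 lay between -0.12 for CDF4 and -0.67 for TPL. C6, w5C6 and W5S are all set against the same W5NS libraries, so these comparisons are not independent of each other.

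Against W5S, CDF1 was the only member past 2-fold in C6 (higher, as were 17.6% of loci, with 8.14% lower and 25.8% either). Its log2 ratio of 1.62 became 1.47 relative to the median shift of that comparison. Relative to that shift CDF2 was also past 2-fold, and lower (-1.06). In w5C6, CDF5 was higher and CDF4 lower, against 23.6% of loci higher and 7.86% lower. With 31.5% of loci past 2-fold either way, the count of 2 among 7 is close to the background. CDF2 had a log2 ratio of -0.78 there, CDF1 of 0.54 and CDF3 of 0.24.

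**Figure D4:**
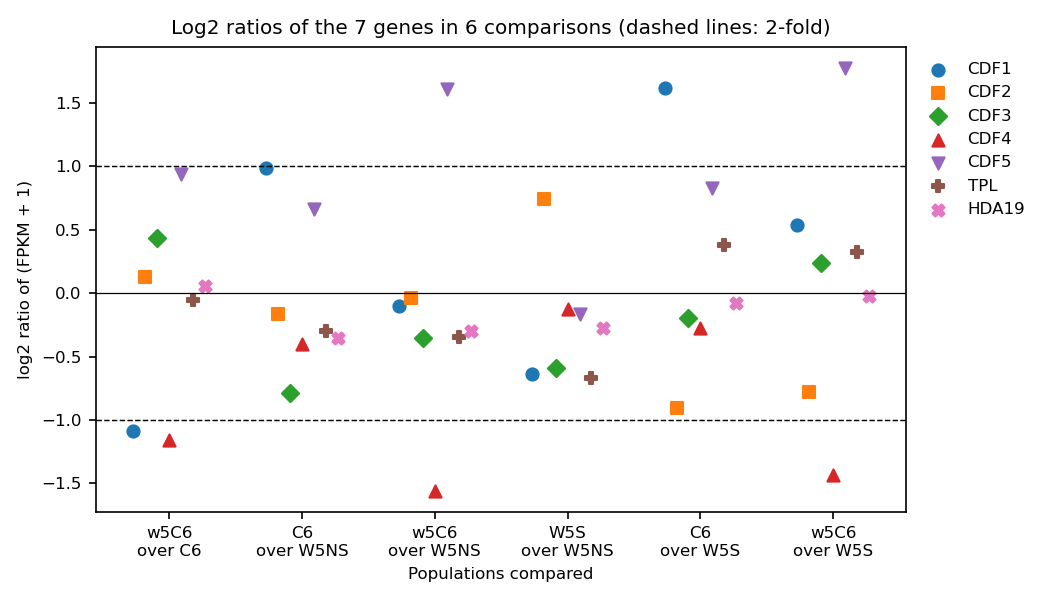
Log2 ratios of (FPKM + 1) (vertical axis) for the 7 genes in 6 comparisons (horizontal axis, first population over second); symbols stand for genes and dashed lines for 2-fold. CDF4 lies below the lower line in all 3 comparisons of w5C6 (-1.16, -1.56 and -1.43), CDF5 lies at 0.94, 1.61 and 1.78 in the same comparisons, and TPL and HDA19 stay between -0.67 and 0.38 throughout.

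Of the 27 other loci annotated as DOF zinc finger genes, 17 had a mean of at least 1 FPKM. Among these 17, 3 were higher and 3 lower past 2-fold in w5C6 than in C6, and their median log2 ratio was -0.25. Of all loci at that mean, 10.1% were higher and 4.85% lower. Over all 27 the counts were 6 higher and 3 lower with a median of 0. Among the 17, 2 were higher and 0 lower in C6 over W5NS, 3 higher and 2 lower in w5C6 over W5NS, and 2 higher and 3 lower in W5S over W5NS. Against W5S, 3 were higher and 3 lower in C6, and 6 higher and 3 lower in w5C6. Over all loci the shares higher and lower against W5NS were 11.4% and 5.80% for C6 and 15.0% and 3.81% for w5C6. For W5S they were 5.89% and 9.31%. Against W5S the shares were 17.6% and 8.14% for C6 and 23.6% and 7.86% for w5C6. The highest ratio was that of DOF6, a repressor of seed germination, at 5.8 FPKM in w5C6 and 0.6 in C6 (log2 ratio 2.09). The lowest was that of AT1G21340, at 32.5 FPKM in w5C6, 169 in C6, 65.4 in W5S and 59.5 in W5NS (log2 ratio -2.35 in w5C6 over C6). It was by far the most abundant DOF gene measured, with a mean of 81.7 FPKM, against 15.4 for CDF2, the highest of the CDF genes. AT1G29160 differed little, at 10.9 FPKM in w5C6, 9.89 in C6, 9.17 in W5S and 9.57 in W5NS. AT1G26790 was listed at 0 in w5C6, C6 and W5S and at 0.00761 FPKM in W5NS.

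Of 6 genes that act on CDF proteins or are their leaf targets, 5 had a mean of at least 1 FPKM. CO was too low to pass 2-fold with the added 1. None of the 6 passed in w5C6 over C6, C6 over W5NS, w5C6 over W5NS or W5S over W5NS. Against W5S, LKP2 was higher in C6 (log2 ratio 1.09) and FT was higher in w5C6 (1.24). Over all loci, 17.6% were higher in C6 and 23.6% in w5C6 against W5S. FKF1, the light receptor that has CDF proteins degraded, read 6.19 FPKM in w5C6, 3.59 in C6, 2.65 in W5S and 4.22 in W5NS. Its partner GI read 19.2, 15.6, 12.6 and 16.2 FPKM in the same order. CO, the CDF target, was at or below 0.738 FPKM in every population and listed at 0 in W5S. FT read 2.73 FPKM in w5C6, 0.875 in C6, 0.58 in W5S and 1.1 in W5NS, and its log2 ratio of 0.99 in w5C6 over C6 was just short of 2-fold. The lowest ratio of that comparison was that of LKP2, a relative of FKF1, at 8.97 FPKM in w5C6 and 12.6 in C6 (-0.45).

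The clock that drives CDF transcription was read from 11 core clock genes. A mean of at least 1 FPKM was reached by 10 of them, and PRR3 was too low to pass 2-fold with the added 1. None of the 11 passed 2-fold in w5C6 over C6, and their median log2 ratio was 0.14. The ratios ran from -0.43 for LUX (34.6 FPKM in w5C6 and 46.8 in C6) to 0.43 for PRR9 (6.39 and 4.5). In C6 over W5NS 1 was higher and 3 were lower, in w5C6 over W5NS 1 was higher and 2 lower, and in W5S over W5NS 1 was higher. Against W5S, 2 were higher and 3 lower in C6, and 1 was higher and 3 lower in w5C6. Over all loci the shares higher and lower were 11.4% and 5.80% in C6 over W5NS, and 15.0% and 3.81% in w5C6 over W5NS. They were 5.89% and 9.31% in W5S over W5NS, 17.6% and 8.14% in C6 over W5S, and 23.6% and 7.86% in w5C6 over W5S. CCA1, a morning clock gene, read 11.8 FPKM in w5C6 and 9.38 in C6, against 40.8 in W5S and 41.7 in W5NS. LHY, its morning partner, read 12.6 FPKM in w5C6 and 14.8 in C6, against 39.9 in W5S and 37.7 in W5NS. ELF4, an evening clock gene, went the other way, with 62.4 FPKM in w5C6 and 55.3 in C6, against 9.4 in W5S and 18.7 in W5NS. The hour of harvest is not given in the sources used here. The part of the clock genes in the CDF values between reporter lines was not tested.

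TPL, a Groucho-type corepressor that gave the TPL family its name, read 34.5 FPKM in w5C6, 35.8 in C6, 27.4 in W5S and 44.2 in W5NS. It was lowest in the QC marker cells, 1.62-fold below W5NS (log2 ratio -0.67), and in w5C6 and C6 it differed by 1.04-fold. Its closest relative TPR1 read 37.8 FPKM in w5C6, 38.7 in C6, 23.8 in W5S and 29.2 in W5NS. TPL made up 47.7% of the TPL and TPR1 sum in w5C6 and 48.1% in C6, against 53.5% in W5S and 60.2% in W5NS. Both genes are alike in sequence, so reads could be exchanged between them, and their sum was 72.4 FPKM in w5C6, 74.5 in C6, 51.2 in W5S and 73.4 in W5NS. TPR4, which like TPL was found as an interactor of WUSCHEL, the shoot relative of WOX5, ranged from 14.1 FPKM in W5S to 23.9 in C6. TPR3 was the family member that differed most between w5C6 and C6, at 7.48 against 13.0 FPKM (log2 ratio -0.73), and LUH, at 55.0 against 51.3 FPKM, had the highest ratio of the list (0.10). Of the 6 corepressors in the list, TPR1 to TPR4 with LUG and LUH, TPR3 alone passed 2-fold in any comparison. It was lower in w5C6 than in W5S (7.48 against 16.6 FPKM, log2 ratio -1.05), as were 7.86% of all loci.

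HDA19, a histone deacetylase of the RPD3 type, was the most abundant of the 12 genes of its type in every population. It read 91.7 FPKM in w5C6, 88.0 in C6, 92.9 in W5S and 113 in W5NS. Its highest value was 1.28 times its lowest, the narrowest range of the 7 genes. HDA19 made up between 42.1% (C6) and 46.4% (W5NS) of the summed FPKM of these genes. HDA6, which shares many functions with HDA19, read 38.8 FPKM in w5C6, 35.5 in C6, 34.2 in W5S and 35.0 in W5NS. Of the 11 other RPD3-type genes, 8 had a mean of at least 1 FPKM. HDA7, HDA10 and HDA17, below that mean, were too low to pass 2-fold with the added 1. None of the 11 passed in w5C6 over C6, with ratios from -0.25 for HDA9 (14.2 and 17.1 FPKM) to 0.43 for HDA14 (1.64 and 0.963). HDA7 was listed at 0 in all populations. HDA2 and HDA18 were higher past 2-fold in W5S than in W5NS, HDA18 at 5.32 against 0.351 FPKM. HDA18 was lower past 2-fold in C6 and in w5C6 than in W5S (log2 ratios -2.33 and -2.11). Over all loci, 5.89% were higher and 9.31% lower in W5S over W5NS. Against W5S, 8.14% of all loci were lower in C6 and 7.86% in w5C6. Among 9 genes of the complexes HDA19 works in, none passed 2-fold in w5C6 over C6, where SNL1 was lowest (5.15 and 7.18 FPKM, -0.41) and SNL3 highest (10.6 and 9.16 FPKM, 0.19). In W5S over W5NS only SNL6, a SIN3-type scaffold gene, did so, and was lower (3.59 against 8.87 FPKM). SNL3 was lower in C6 than in W5S (9.16 against 19.6 FPKM). SAP18, a small subunit, was the most abundant of them at 99.0 FPKM in w5C6 and 116 in C6.

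**Figure D5:**
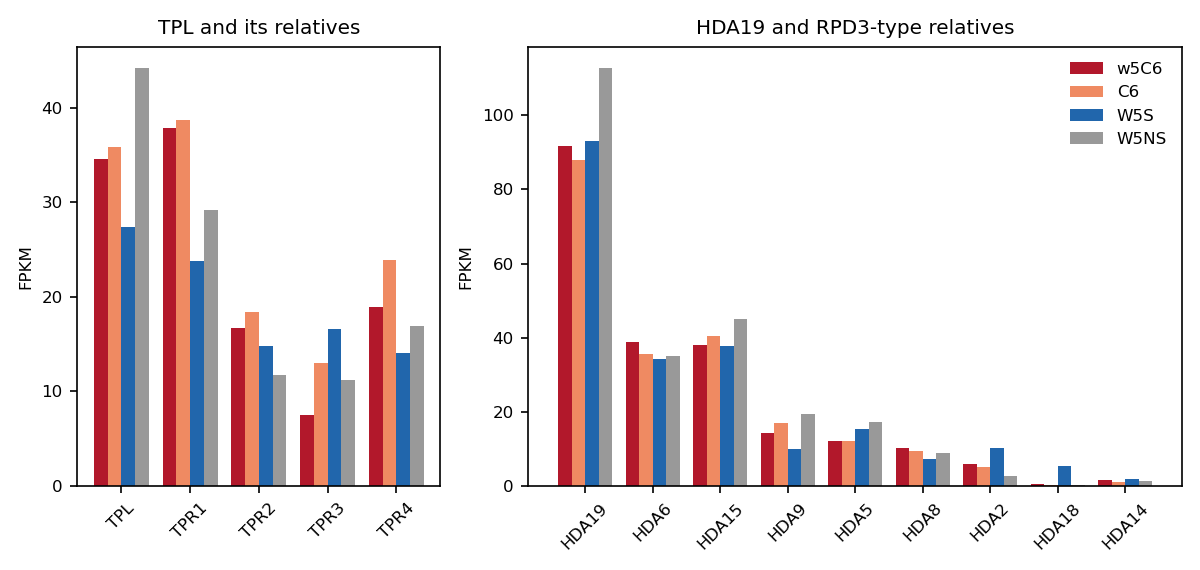
FPKM (vertical axes, from 0) of TPL with TPR1 to TPR4 and of HDA19 with the RPD3-type genes of at least 1 FPKM on average; bars stand for populations, pooled values with no error bars. TPL is highest in W5NS at 44.2, TPR1 in C6 at 38.7, and HDA19 is above all its relatives in every population.

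Other genes of the WOX5 pathway were read beside CDF4. CYCD3;3, a D-type cyclin that WOX5 keeps low in the QC, read 16.8 FPKM in w5C6, 17.6 in C6, 26.7 in W5S and 55.9 in W5NS. It was lower past 2-fold in W5S than in W5NS (log2 ratio -1.04), and its log2 ratio in w5C6 over C6 was -0.06. ACR4, a receptor kinase of columella stem cell control, read 5.34 FPKM in w5C6 and 5.24 in C6, against 14.6 in W5S and 19.6 in W5NS. CLE40, the peptide gene that acts with it, read 2.14 FPKM in w5C6, 4.1 in C6, 11.5 in W5S and 6.66 in W5NS. CYCD1;1, another D-type cyclin, read 3.68 FPKM in w5C6 and 2.39 in C6 (log2 ratio 0.46). WOX5, the gene mutated in w5C6, was the only one of these 5 past 2-fold in w5C6 over C6. Set against W5NS, 4 of the 5 were lower in w5C6, 3 were lower in C6, and 1 was higher and 1 lower in W5S. Set against W5S, 1 was higher and 3 were lower in w5C6, and 3 were lower in C6. In these counts WOX5 is a lower gene of w5C6 and of C6, and the 1 higher in W5S. It is mutated in w5C6 and its promoter drives the W5S reporter, so its calls come with the design. Over all loci, 3.81% were lower in w5C6 and 5.80% in C6 against W5NS, and 7.86% and 8.14% against W5S.

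Markers of several cell types also differed in w5C6 over C6, some higher and some lower. Over all loci, 10.1% were higher and 4.85% lower past 2-fold. Of 8 endodermis markers 6 were lower past 2-fold, and their summed FPKM was 95.3 in w5C6 and 813 in C6. SCR, an early endodermis marker, was nearly level at 47.6 FPKM in w5C6 and 48.9 in C6. Of 6 root cap markers, BRN1 was lower past 2-fold, and the sum was 124 FPKM in w5C6 and 224 in C6. BRN2 (-0.998), SMB (-0.63) and FEZ (-0.23) had log2 ratios below 0, and PIN3 (0.26) and ARL2 (0.56) above 0. All 4 photosynthesis genes were higher, with a sum of 2670 FPKM in w5C6 and 11.6 in C6. Of 5 vasculature markers, APL was higher and ATHB8 and SUC2 lower. ATHB8 read 1.61 FPKM in w5C6, 5.45 in C6, 29.9 in W5S and 32.5 in W5NS. APL read 7.33, 1.86, 1.17 and 2.47 FPKM in the same order. The vasculature sum was 52.7 FPKM in w5C6 and 51.0 in C6, of which WOL made up 36.4 and 30.3. Of 4 epidermis markers EXPA7 was higher, with a sum of 343 FPKM in w5C6 and 194 in C6. COBL9 had a log2 ratio of 0.67, while GL2 (-0.54) and WER (-0.04) lay below 0. The cortex marker CO2 read 7.79 and 7.44 FPKM. No marker was listed at 0 in w5C6 or C6. The part of these cell types in the CDF1, CDF4 and CDF5 values was not tested. In w5C6 over W5NS, where CDF4 was 3.76-fold lower, 6 endodermis markers were lower and 2 higher, and 4 of 6 root cap markers were lower (sums of 124 and 358 FPKM). The log2 ratios of BRN1 (0.35) and BRN2 (0.16) were above 0 there. In C6 over W5NS 7 endodermis markers were higher and 0 lower. Of the root cap markers 4 were lower and 2 were higher (sums of 224 and 358 FPKM). The log2 ratio of CDF4 was -0.40 there. In w5C6 over W5NS 3 QC markers were lower and 1 higher, and all 4 photosynthesis genes were higher. Vasculature markers had 1 higher and 2 lower there, and epidermis markers 2 higher and 1 lower. In C6 over W5NS 3 QC, 1 vasculature and 1 epidermis marker were lower, and 2 photosynthesis genes were higher. Over all loci, 15.0% were higher and 3.81% lower in w5C6 over W5NS, and 11.4% and 5.80% in C6 over W5NS.

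The loci with the likest pattern to each gene were found by the Euclidean distance between log2 values centred over the 4 populations, among loci of at least 5 FPKM on average. The 4 points carry little information, so these are descriptions only. CDF4 was nearest to MAPKKK21 (distance 0.16), at 22.2 FPKM in w5C6, 54.4 in C6, 72.3 in W5S and 73.2 in W5NS, and to the transcription factor gene WRKY23 (distance 0.17). For CDF1 the nearest named genes were MTM1 and SAG24 (distances 0.10 each), and for CDF2 MED32, DAL1 and PRMT7 (0.04, 0.05 and 0.06). CDF3 was nearest to APTX (0.03), TPL to AT1G27090 (0.02) and HDA19 to MMH-1 (0.02). The 3 nearest loci to CDF5 have no symbol in the annotation. Among the 7 genes themselves, TPL with HDA19 (distance 0.35) and CDF3 with HDA19 (0.36) were the likest pairs, and CDF4 and CDF5 the least alike (2.60). Genes of narrow range lie close by this measure whatever their pattern.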

How the data were processed

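RNA was amplified by the authors with a SMART-Seq kit for low inputs and sequenced as single-end reads. Through TuxNet, fastq-mcf trimmed the reads, HISAT2 placed them on the genome and Cufflinks gave expression values. Neither versions nor the build and its gene models are given in the sources used here, and no sequence or coordinate is printed. What the authors deposited is a single pooled value for each locus in each population (4 libraries), taken here as FPKM, a unit inferred from this pipeline since the header names none. The authors' log2 fold changes and q-values for each pair of populations were not used. Whole reads could not be recovered. Among loci under 0.3 FPKM in both populations of a pair, at most 1.82% shared 1 ratio (log2 bins of 0.01).

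Log2 ratios of (FPKM + 1) were computed for 6 pairs of populations. A gene was called past 2-fold in size, over loci with a mean of at least 1 FPKM (20344 loci), and all 7 genes passed this filter. The bands of 2 to 20 and 20 to 150 FPKM were set after the values were seen. The calculation was also tried on a copy of the values in which some loci had been changed by known folds, and the outcome is not given here. The genes and the lists of related genes and markers were chosen with earlier results of these data known. Named genes are the 7 genes, the highest and lowest of each list of related genes in w5C6 over C6, WOX5, CYCD6;1, TPR1, TPR4, HDA6, AT1G26790, AT1G29160, FKF1 and GI, and, for each of the 7 genes, loci with a symbol among the 3 of nearest pattern. AT1G27090 has none, and it and the other genes named were chosen after their values were seen, as were the markers singled out. Symbols came from the TAIR10.1 RefSeq table, which names 5 of the 7 genes, and CDF4 and CDF5 were named by gene ID. That table also gives the symbol CDF1 to an unrelated gene, which was not used. In the alternatives the pseudocount, the fold, the filter and the scaling were changed. Python 3.11.15, pandas 2.3.3, NumPy 2.4.6 and matplotlib 3.10.9 were used.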

Additional observations from a re-analysis of the deposited data

How the results depend on the processing

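All values are pooled over libraries, so leaving out a replicate was not run. No paired analysis was possible because the columns carry no replicate. Among the 42 log2 ratios of single members, 193 of 210 recomputed values kept their side of 2-fold and 17 crossed it. Most of the 42 were short of 2-fold at the main setting, so most values kept that side. Every ratio past 2-fold fell short of it with a pseudocount of 5 FPKM, as CDF4 did in w5C6 over C6 (-0.65). In the other recomputations these ratios stayed past 2-fold, and none changed sign. The counts of members past 2-fold were less stable. In w5C6 over C6 the count was 2, and it was 0 with a pseudocount of 5 FPKM or at 3-fold. CDF5 passed in that comparison with a pseudocount of 0.1 FPKM (1.12) and with either scaling to equal sums (1.02 and 1.04). In C6 over W5NS it was 0, and it was 1 with a pseudocount of 0.1 FPKM (CDF1) and with both scalings to equal sums (CDF3, -1.14), and 3 at 1.5-fold. In w5C6 over W5NS it was 2, against 0 with a pseudocount of 5 FPKM and 1 at 3-fold or with a mean of at least 5 FPKM, which leaves out CDF3 and CDF5. In W5S over W5NS it was 0, and 4 at 1.5-fold. In C6 over W5S it was 1, against 0 with a pseudocount of 5 FPKM, 2 with a pseudocount of 0.1 FPKM, with centring on the median and with both scalings to equal sums, and 3 at 1.5-fold. In w5C6 over W5S it was 2, against 0 with a pseudocount of 5 FPKM and 1 at 3-fold or with a mean of at least 5 FPKM. The share of all loci was computed for the main setting only. The counts at the other settings thus have no background to be set against. A larger pseudocount shrinks ratios of low genes by construction, and the cause of the other changes was not tested. The CDF genes lie at 1.34 to 23.2 FPKM, where depth, which is unknown, limits them most.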
